A study of Homo sapiens with 8 samples.

Results

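Of 25369 genes in the read count table of CHP212 cells, 28 were read in every unmodified (WT) library and were close to silent in every library of the FAM193A knockout (KO). A gene was taken when it had at most 20 reads in each of the 4 KO libraries and at least 100 reads in each of the 4 WT libraries. Symbols starting with COL, LAM, ITG or HIST, and TGFA, were set aside, which removed ITGA8 alone of 29 genes. The genes were thus chosen by their read counts in KO and WT, and their KO and WT levels are given as a description with no test. The opposite limits, at least 100 reads in each KO library and at most 20 in each WT library, gave 52 genes with no symbol set aside, beside the 29. Every KO library had more reads in total than every WT library, so these counts are not strictly comparable.

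CHP212 is a human neuroblastoma cell line, and poly(A) RNA was sequenced from 4 groups of 2 independent biological replicates each. The groups were FAM193A KO cells with 10 uM Nutlin-3a, FAM193A KO cells with 0.2% DMSO, WT cells with 10 uM Nutlin-3a and WT cells with 0.2% DMSO, with a treatment of 12 h. The sources used here name a single KO population and do not describe the edit, so an effect of the lost gene and any other property of that population cannot be told apart. In bulk RNA, fewer cells that express a gene and less RNA in each cell cannot be told apart either.

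Nutlin-3a blocks the contact between p53 and MDM2, the ligase that marks p53 for destruction, and so raises p53 and its target genes. Neuroblastoma arises from the sympathetic lineage, and its cells can hold an adrenergic or a mesenchymal state, each with its own transcription factors. Many tissue-restricted genes carry promoters poor in CpG dinucleotides, while most broadly expressed genes start in CpG islands.

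The 28 genes do not form a single known pathway. They include nuclear factors (FOXL2, SHOX2, TOX3, ZNF785, SFMBT2, BAHCC1), immune receptors and signalling proteins (GPR183, MYD88, ZAP70, CD163L1, TSPAN32), secreted or vascular proteins (CRH, A2M, THBD, TMEM204) and proteins of neurons, myelin, channels or vesicles (VSNL1, MBP, CALHM3, SYTL5). SPATA18, SBK3, C8orf4, FOXL2NB, LINC00961, LOC101927482, CTD-2201I18.1 and MGC45800 make up the rest. RefSeq lists 25 of the 28 as protein coding. C8orf4 is there under its current name TCIM, LINC00961 as SPAAR, LOC101927482 as the long noncoding RNA HECW2-AS1 and CTD-2201I18.1 as the long noncoding RNA THBS4-AS1. MGC45800 had no match.

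The promoters of the 5 genes with the highest WT levels per length are shown because they differ in CpG content and include a divergent pair. Each line holds the 250 bases before the RefSeq start in the GRCh38.p14 build, 5′ to 3′ on the strand of the gene, with CpG dinucleotides in capitals. The window of FOXL2 is chr3:138947138-138947387 on the minus strand and that of FOXL2NB is chr3:138946967-138947216 on the plus strand. The window of GPR183 is chr13:99307400-99307649 on the minus strand, that of MYD88 is chr3:38138411-38138660 on the plus strand and that of SBK3 is chr19:55545544-55545793 on the minus strand.
FOXL2: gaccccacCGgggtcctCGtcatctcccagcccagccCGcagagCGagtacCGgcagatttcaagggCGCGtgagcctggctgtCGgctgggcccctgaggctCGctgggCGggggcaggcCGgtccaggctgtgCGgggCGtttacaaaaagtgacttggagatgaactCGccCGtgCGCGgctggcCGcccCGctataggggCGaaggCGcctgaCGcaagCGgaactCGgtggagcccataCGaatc
FOXL2NB: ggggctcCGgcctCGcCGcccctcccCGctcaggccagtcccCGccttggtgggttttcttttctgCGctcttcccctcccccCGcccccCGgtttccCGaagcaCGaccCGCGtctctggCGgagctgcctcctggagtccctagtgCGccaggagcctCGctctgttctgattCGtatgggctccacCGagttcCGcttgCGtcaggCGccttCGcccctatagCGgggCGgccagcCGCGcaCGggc
GPR183: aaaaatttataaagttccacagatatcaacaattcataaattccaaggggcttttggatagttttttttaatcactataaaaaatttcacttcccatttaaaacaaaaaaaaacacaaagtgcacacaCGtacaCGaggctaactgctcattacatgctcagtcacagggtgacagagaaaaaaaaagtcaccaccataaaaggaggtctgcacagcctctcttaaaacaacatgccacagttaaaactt
MYD88: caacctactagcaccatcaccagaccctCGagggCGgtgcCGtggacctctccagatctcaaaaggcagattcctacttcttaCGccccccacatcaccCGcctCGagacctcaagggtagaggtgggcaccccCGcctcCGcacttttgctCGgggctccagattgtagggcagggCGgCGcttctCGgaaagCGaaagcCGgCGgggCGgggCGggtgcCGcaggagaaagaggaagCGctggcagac
SBK3: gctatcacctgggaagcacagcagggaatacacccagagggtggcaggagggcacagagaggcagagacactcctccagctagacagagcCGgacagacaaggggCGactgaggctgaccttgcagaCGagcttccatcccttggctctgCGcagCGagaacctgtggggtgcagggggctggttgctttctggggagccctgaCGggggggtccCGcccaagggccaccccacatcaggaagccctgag
FOXL2 and FOXL2NB run away from each other from starts 80 bases apart, so both windows hold the stretch between them. The FOXL2 window held 25 CpGs and the FOXL2NB window 26. MYD88 had 19 CpGs in its window, SBK3 had 7 and GPR183 had 2.

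RefSeq promoters were at hand for 19 of the 28 genes, and the CpG content of these was mostly low. The number of CpGs over the number that base composition predicts reached 0.6 in 7 of the 19 promoters (36.8%), against 83.7% of the promoters of 9227 other genes with at least 100 reads in each WT library. The median ratio was 0.402 for the 19 promoters and 0.835 for the others. The median GC content was 55.2% for the 19 promoters and 65.2% for the others. Those at or over 0.6 were MBP, FOXL2NB, FOXL2, BAHCC1, MYD88, SPATA18 and SHOX2, with SFMBT2 just under it at 0.597. SYTL5 and LOC101927482 had 0 CpGs in the window, and CD163L1 had 1. The 9227 other genes were not matched to these by WT level, and the CpG comparison carries no test.

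**Figure D1:**
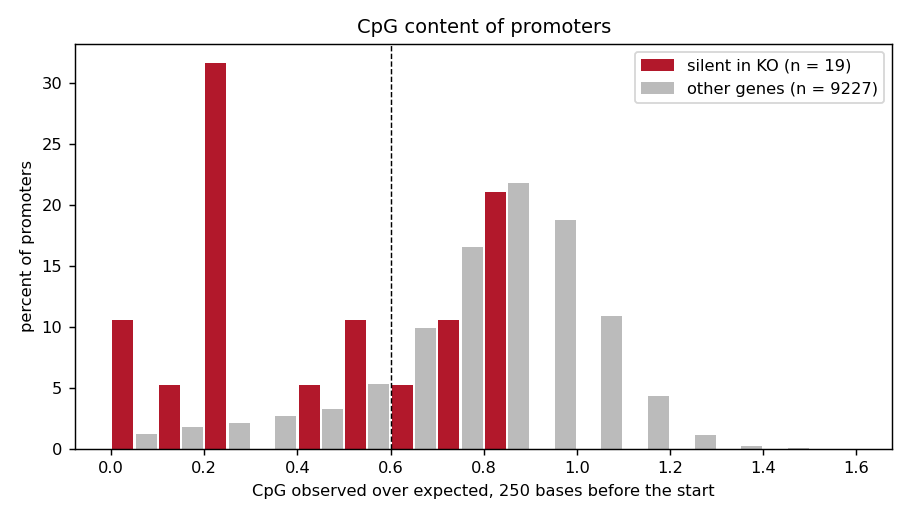
CpG observed over expected in the 250 bases before the start (horizontal axis) against the percent of promoters per bin (vertical axis), for the 19 genes silent in KO with a promoter at hand (red) and 9227 other genes with at least 100 reads in each WT library (grey). The dashed line is at 0.6, which 7 of the 19 red promoters and 83.7% of the grey promoters reach.

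Short motifs were searched on both strands of the same windows. The letters TATAAA were present in 4 of the 19 promoters (21.1%), those of CD163L1, CTD-2201I18.1, GPR183 and VSNL1, against 4.70% of the other promoters. GGGCGG was present in 9 promoters (47.4% against 68.7%), CCAAT in 5 (26.3% against 35.5%) and CACGTG in 1, that of ZAP70 (5.26% against 9.33%). None of these 4 motifs contains another. The shares carry no test, and a match of letters is not a measured site.

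Libraries held 28390405 to 38010075 reads. The 28 genes together took 6.08 to 7.15 CPM (counts scaled to the library total) in the KO libraries and 436 to 481 CPM in the WT libraries. Genes with at least 30 reads in one library and at most 3 in its replicate numbered 8 in KO Nutlin-3a replicate 2, 27 in WT Nutlin-3a replicate 1 and 10 in WT DMSO replicate 2, and at most 2 in every other library. Leaving out these 3 libraries, an alternative chosen after seeing the data, ended calls that include those of SPATA18, ZAP70 and MYD88, given below. FAM193A itself was still read, with 1548 and 1269 reads in KO Nutlin-3a and 1244 and 1240 in KO DMSO libraries, against 1529 and 1238 in WT Nutlin-3a and 1343 and 1138 in WT DMSO libraries. Its log2 difference, KO DMSO over WT DMSO, was -0.33 (SE 0.08, edgeR quasi-likelihood adjusted p = 0.000999). The sources do not place the edit, so this count is no check of it. MDM2 and CDKN1A, standard p53 targets, had log2 Nutlin-3a responses of 4.61 and 5.39 in WT cells.

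Both neuroblastoma marker sets were read in every library. The 13 adrenergic markers summed to 3729 to 4348 CPM, scaled by TMM here and below, in KO libraries and 3315 to 5000 CPM in WT libraries. MYCN had the most reads of these, and of the 13 markers 9 were called higher and 4 lower in KO DMSO against WT DMSO by edgeR. TH, the rate-limiting enzyme of catecholamine synthesis, had 347 and 419 reads in KO DMSO and 14512 and 13684 in WT DMSO libraries. DBH, which makes noradrenaline, had 1051 and 1229 reads in KO DMSO and 19 and 11 in WT DMSO libraries. The 12 mesenchymal markers summed to 2208 to 2310 CPM in KO libraries and 2654 to 2870 CPM in WT libraries. VIM had the most reads of these, and 5 of the 12 were called higher and 7 lower in KO DMSO against WT DMSO. The 4 fibroblast markers, led by LUM, summed to 286 to 452 CPM in KO and 472 to 689 CPM in WT libraries. In the same comparison 1 of them was called higher and 2 lower. The 5 epithelial markers, led by KRT8 and KRT18, summed to 219 to 283 CPM in KO and 585 to 685 CPM in WT libraries, with 0 called higher and 3 lower. The part of these levels in the results on the 28 genes was not tested. Endothelial, blood, glial, liver and melanocyte markers summed to at most 16.4 CPM per set, and CD3E and TYR had 0 reads in all 8 libraries.

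Among the nuclear factors, the FOXL2 pair showed the widest contrast. FOXL2, a forkhead transcription factor best known for maintaining ovarian granulosa cells, had 10 and 8 reads in KO Nutlin-3a and 1 and 2 reads in KO DMSO libraries, against 2052 and 1806 in WT Nutlin-3a and 1864 and 1724 in WT DMSO libraries. FOXL2NB, the gene on its other side named for that position, had 17 and 12 reads in KO Nutlin-3a and 4 and 7 in KO DMSO libraries, against 1698 and 1511 in WT Nutlin-3a and 1295 and 1157 in WT DMSO libraries. In both genes the KO libraries lay below 20 reads and the WT libraries lay far above 100.

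SHOX2 is a homeobox factor of limb and cardiac pacemaker development. It had 15 and 10 reads in KO Nutlin-3a and 8 and 8 in KO DMSO libraries, against 342 and 282 in WT Nutlin-3a and 504 and 465 in WT DMSO libraries. Its WT reads were higher with DMSO than with Nutlin-3a. TOX3, a high mobility group box protein, had 3 to 12 reads in KO and 292 to 350 in WT libraries.

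The chromatin proteins were nearer the upper limit in KO. SFMBT2, a Polycomb group protein with malignant brain tumour repeats, had 17 and 8 reads in KO Nutlin-3a and 19 and 19 in KO DMSO libraries, against 118 and 142 in WT Nutlin-3a and 114 and 132 in WT DMSO libraries. BAHCC1, a large protein with a bromo-adjacent homology domain, had 4 to 19 reads in KO and 438 to 535 in WT libraries. ZNF785, a zinc finger protein, had 14 to 18 reads in KO and 108 to 146 in WT libraries, the narrowest contrast of the 28.

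Among the immune genes, GPR183 was the most abundant. GPR183, also called EBI2, is a receptor for oxysterols that guides B cells and other leukocytes, and it had 9 and 6 reads in KO Nutlin-3a and 5 and 7 in KO DMSO libraries, against 3719 and 2930 in WT Nutlin-3a and 3412 and 3298 in WT DMSO libraries. MYD88, the adaptor that joins Toll-like and interleukin-1 receptors to their kinases, had 16 and 20 reads in KO Nutlin-3a and 6 and 11 in KO DMSO libraries, against 625 and 552 in WT Nutlin-3a and 593 and 590 in WT DMSO libraries. The KO libraries of MYD88 reach the limit of 20 in 1 library, while the WT libraries of both genes lie far above 100.

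ZAP70, the kinase that binds the phosphorylated T cell receptor, had 11 and 15 reads in KO Nutlin-3a and 7 and 13 in KO DMSO libraries, against 163 and 154 in WT Nutlin-3a and 219 and 209 in WT DMSO libraries. CD163L1, a scavenger receptor of the CD163 family, had 9 to 16 reads in KO and 422 to 515 in WT libraries. TSPAN32, a tetraspanin of blood cells, had 0 to 8 reads in KO and 103 to 189 in WT libraries. The blood marker set was near 0 beside these genes, at 0.894 to 1.41 CPM in KO and 0.287 to 1.33 CPM in WT libraries. Within it PTPRC had 21 to 34 reads in KO and 0 to 5 in WT libraries, and LCK, the kinase that acts before ZAP70, had at most 8 reads in any library.

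Among the secreted and vascular proteins, THBD and CRH were also called for Nutlin-3a in WT cells (values below). THBD, thrombomodulin, the endothelial receptor that turns thrombin towards protein C activation, had 10 and 11 reads in KO Nutlin-3a and 11 and 8 in KO DMSO libraries, against 944 and 837 in WT Nutlin-3a and 341 and 377 in WT DMSO libraries. CRH, the hypothalamic hormone that releases corticotropin, had 0 and 0 reads in KO Nutlin-3a and 1 and 0 in KO DMSO libraries, against 232 and 212 in WT Nutlin-3a and 149 and 124 in WT DMSO libraries. CRH is therefore read in WT cells of both treatments and all but absent from the KO libraries.

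A2M, alpha-2-macroglobulin, a secreted trap for proteases, had 8 to 19 reads in KO and 260 to 327 in WT libraries. TMEM204, a membrane protein of endothelial junctions, had 4 to 7 reads in KO and 252 to 316 in WT libraries. The liver markers ALB and APOA1, beside A2M, had at most 44 and 7 reads. The endothelial markers PECAM1 and CDH5, beside THBD and TMEM204, had at most 30 and 19 reads. VWF, of the same set, ran from 216 to 231 reads in KO and from 66 to 79 in WT libraries. VWF thus lay higher in KO, the opposite of THBD and TMEM204. KDR peaked at 78 reads, in a WT library with Nutlin-3a, and stayed at or under 1 elsewhere. The 4 endothelial markers summed to 6.44 to 7.74 CPM in KO and 2.89 to 5.50 CPM in WT libraries.

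The next genes act in neurons, myelin, channels or vesicles. VSNL1, a neuronal calcium sensor of the visinin family, had 5 to 17 reads in KO and 173 to 259 in WT libraries. MBP, myelin basic protein, had 10 to 19 reads in KO and 273 to 389 in WT libraries, while the glial factor SOX10 had at most 5 reads anywhere. CALHM3, a subunit of the large-pore channels of taste cells, had 0 to 7 reads in KO and 161 to 266 in WT libraries. SYTL5, a Rab27-binding protein of the synaptotagmin-like family, had 5 and 5 reads in KO Nutlin-3a and 10 and 15 in KO DMSO libraries, against 149 and 152 in WT Nutlin-3a and 116 and 139 in WT DMSO libraries.

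SPATA18, also called Mieap, is a p53 target with a role in mitochondrial quality control. It had 3 and 8 reads in KO Nutlin-3a and 6 and 1 in KO DMSO libraries, against 221 and 184 in WT Nutlin-3a and 160 and 123 in WT DMSO libraries. SBK3, a kinase of the SH3-binding kinase family, had 5 and 5 reads in KO Nutlin-3a and 3 and 6 in KO DMSO libraries, against 624 and 663 in WT Nutlin-3a and 337 and 284 in WT DMSO libraries. Nutlin-3a libraries were the higher ones in WT for both genes. C8orf4, a small protein linked to Wnt signalling, had 1 to 4 reads in KO and 308 to 387 in WT libraries.

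LINC00961, which encodes a small polypeptide of the lysosome membrane, had 7 to 16 reads in KO and 220 to 318 in WT libraries. MGC45800 had 11 and 6 reads in KO Nutlin-3a and 16 and 7 in KO DMSO libraries, against 175 and 163 in WT Nutlin-3a and 291 and 279 in WT DMSO libraries. CTD-2201I18.1 had 7 to 14 reads in KO and 111 to 154 in WT libraries. LOC101927482 had 0 reads in all 4 KO libraries, against 149 and 134 in WT Nutlin-3a and 111 and 106 in WT DMSO libraries. It was the only one of the 28 with no KO read at all.

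**Figure D2:**
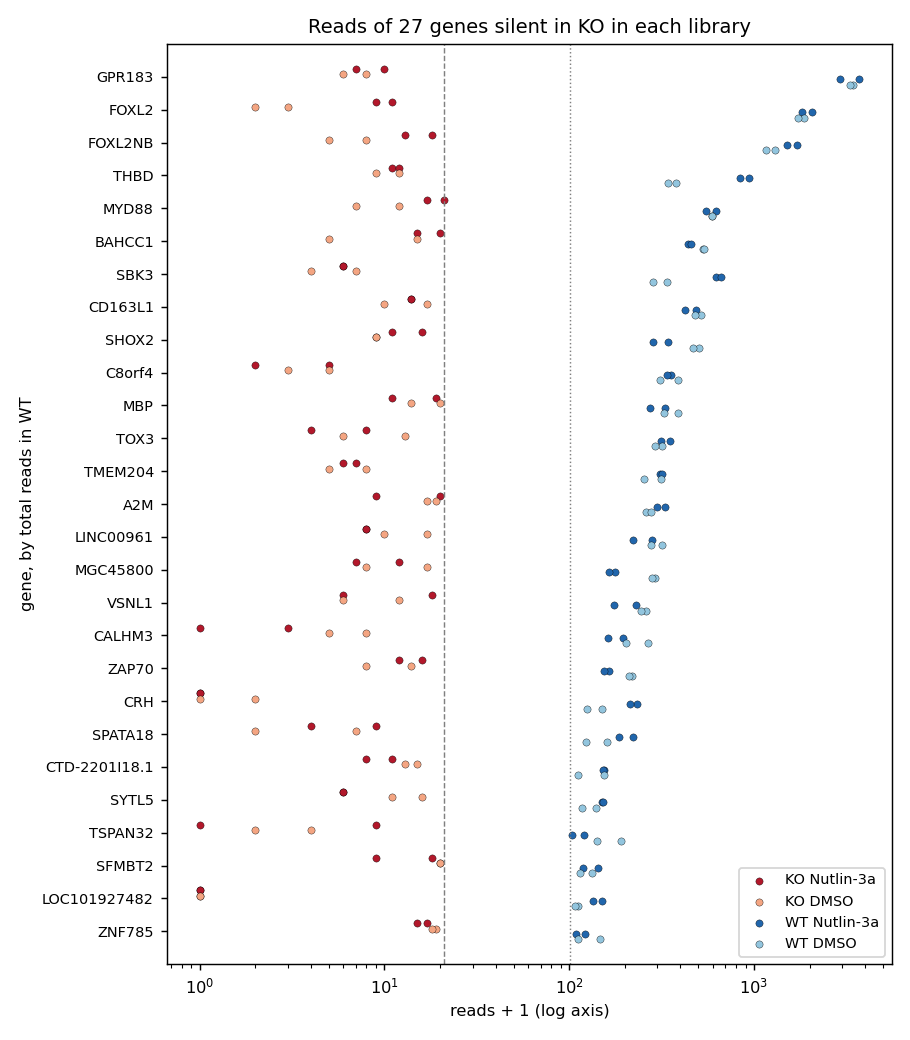
Reads plus 1 on a log axis (horizontal) for 27 of the 28 genes (vertical, by total WT reads), with 1 point per library for KO Nutlin-3a, KO DMSO, WT Nutlin-3a and WT DMSO. The dashed and dotted lines mark the limits of 20 and 100 reads. GPR183 and FOXL2 lie farthest right in WT at 1724 to 3719 reads, while their KO points stay between 1 and 10 reads.

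The remaining KO level differed widely within the set. Taken from the reads summed over 4 libraries each and scaled to their totals, the KO level in percent of the WT level ran from 0.113% for CRH to 10.8% for ZNF785, with a median of 2.09% over the 27 genes with a KO read. It was under 1% for 6 genes, namely CRH, GPR183 (0.164%), FOXL2 (0.229%), FOXL2NB (0.573%), C8orf4 (0.642%) and SBK3 (0.807%). It was over 5% for 5 genes, with SFMBT2 (10.1%), CTD-2201I18.1 (6.10%), SYTL5 (5.10%) and ZAP70 (5.00%) beside ZNF785. The exact 95% interval, from the Clopper-Pearson interval of the KO share of the reads and covering counting error only, was 0.108% to 0.238% for GPR183, 0.00286% to 0.632% for CRH and 8.24% to 14.1% for ZNF785. LOC101927482 was at least 206-fold lower in KO, against a floor of 3 reads over the 4 KO libraries. Some of the 28 are thus near 0 in KO, and others keep a low but countable level.

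Per length, most of these genes were modest in WT cells. By the deposited RPKM (reads scaled to gene length and library depth), averaged over the 4 WT libraries, GPR183 stood at 62.1, FOXL2 at 21.2, SBK3 at 12.6, FOXL2NB at 11.6 and MYD88 at 6.83. SFMBT2 stood at 0.524, near the lower end. The median was 3.39 RPKM over the 28 genes and 11.7 RPKM over the 11312 genes with at least 100 reads in each WT library. In KO the highest RPKM of any of the 28 in any library was 0.272, for LINC00961.

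Several genes fell just outside the limits. The highest KO count was 21 to 30 in 11 genes with at least 100 reads in every WT library. PLAC8, with 8 to 21 reads in KO and 224 to 838 in WT libraries, and STOM, with 11 to 26 in KO and 571 to 738 in WT libraries, were among them. LAPTM5, a lysosomal protein of blood cells, had 0 to 23 reads in KO and 123 to 499 in WT libraries. The lowest WT count was 85 to 99 in 7 genes with at most 20 KO reads, among them FLT1, a receptor for vascular endothelial growth factor, with 0 to 3 reads in KO and 99 to 240 in WT libraries. Just inside the limits, MYD88 reached 20 reads in a KO library, A2M, BAHCC1, MBP and SFMBT2 reached 19, and TSPAN32 fell to 103 reads in a WT library.

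By chromosome the 28 genes were scattered. RefSeq placed 27 of them on 16 chromosomes. Chromosome 3 held 4, namely FOXL2, FOXL2NB, MYD88 and SHOX2, and had 5.60% of the 11261 placed genes with at least 100 reads in each WT library. Chromosome 2 held LOC101927482, VSNL1 and ZAP70, and chromosome 16 held TMEM204, TOX3 and ZNF785. Chromosomes 8 (C8orf4, CRH), 10 (CALHM3, SFMBT2) and 12 (A2M, CD163L1) held 2 each. A single gene lay on chromosome 4 (SPATA18), 5 (CTD-2201I18.1), 9 (LINC00961), 11 (TSPAN32), 13 (GPR183), 17 (BAHCC1), 18 (MBP), 19 (SBK3) and 20 (THBD), and SYTL5 lay on X. Chromosome 1, with 9.56% of the placed genes, held 0, as did 6, 7, 14, 15, 21 and 22. FOXL2 and FOXL2NB were the only 2 of the 28 with no other tested gene between them.

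The Nutlin-3a response in WT cells was not itself used to choose the genes, but the read limits bear on it. They ask for 100 reads in each WT library and at most 20 in each KO library, Nutlin-3a libraries included. A gene that rises with Nutlin-3a in KO cells can thus pass 20 reads and be left out. The share of calls may be set in part by this, so no conclusion is drawn from it. Among 18 genes just outside the limits, 55.6% were called in WT cells by edgeR. Most of the 28 did not pass the test: 5 rose, 4 fell and 19 were not called by edgeR's quasi-likelihood test at an adjusted p of 0.05. These 9 are 32.1% of the 28, below the 58.6% called among all 15879 tested genes (29.4% higher and 29.2% lower) and the 67.3% among genes with at least 100 reads in each WT library (31.5% higher and 35.7% lower). The 28 also had fewer reads, with a median of 281 mean WT reads against 1234 for genes over that limit. Within genes whose lowest WT count was 100 to 500, a band chosen after the data were seen, 4 of the 24 genes of the set were called higher and 4 lower (33.3% in all), against 62.3% of 3291 genes (31.3% higher and 31.0% lower). The median log2 fold change was 0.013 over the 28 genes and 0.017 over all tested genes.

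THBD rose most, to 31.1 and 30.1 CPM in WT Nutlin-3a against 11.2 and 13.2 CPM in WT DMSO libraries, a log2 fold change of 1.33 (SE 0.10, adjusted p = 1.8e-09). SBK3 had 20.6 and 23.8 CPM in WT Nutlin-3a and 11.1 and 9.97 CPM in WT DMSO libraries, a log2 fold change of 1.07 (SE 0.11, adjusted p = 1.3e-07). These were the only 2 of the 28 past 2-fold. CRH averaged 7.63 ± 0.019 CPM in WT Nutlin-3a and 4.63 ± 0.38 CPM in WT DMSO libraries (SD, n = 2 each), a log2 fold change of 0.72 in the edgeR model. SPATA18 averaged 6.95 ± 0.47 CPM in WT Nutlin-3a and 4.79 ± 0.66 CPM in WT DMSO libraries, a log2 fold change of 0.54. FOXL2NB averaged 55.1 ± 1.2 CPM in WT Nutlin-3a and 41.6 ± 1.4 CPM in WT DMSO libraries, a log2 fold change of 0.41. The edgeR adjusted p was 0.00122 for CRH, 0.0255 for SPATA18 and 4.5e-05 for FOXL2NB.

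Of the genes that fell, MGC45800 averaged 5.81 ± 0.064 CPM in WT Nutlin-3a and 9.68 ± 0.17 CPM in WT DMSO libraries, with a log2 fold change of -0.74 (SE 0.16, edgeR adjusted p = 0.000547). SHOX2 averaged 10.7 ± 0.80 CPM in WT Nutlin-3a and 16.4 ± 0.17 CPM in WT DMSO libraries, with a log2 fold change of -0.62 (SE 0.11, edgeR adjusted p = 9.1e-05). ZAP70 stood at 5.37 and 5.54 CPM in WT Nutlin-3a and 7.20 and 7.34 CPM in WT DMSO libraries, with a log2 fold change of -0.41 (edgeR adjusted p = 0.0307). In all 9 called genes the CPM of the Nutlin-3a and DMSO libraries of WT cells did not overlap, and the same held for 11 of the 19 genes not called. The share without overlap among all tested genes was not counted, so this is no added support for the calls.

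**Figure D3:**
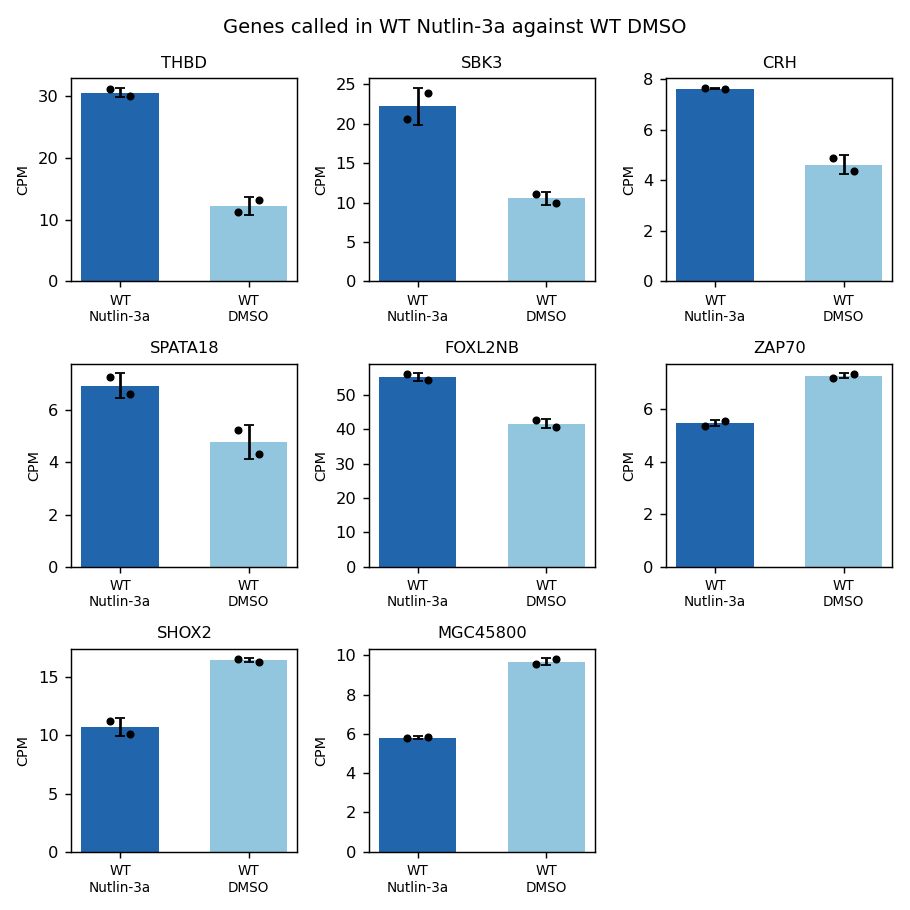
CPM (vertical axis of each panel) of 8 of the 9 genes called in WT Nutlin-3a against WT DMSO, with the bar at the mean, the error bar 1 SD and a point for each of the 2 libraries. THBD averages 30.6 CPM in WT Nutlin-3a and 12.2 CPM in WT DMSO cells.

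The calls of SPATA18 and ZAP70 were less firm than those of THBD, SBK3, CRH, FOXL2NB, MGC45800 and SHOX2, which held in all 18 alternatives that keep the threshold of 0.05. SPATA18 lost its call without WT Nutlin-3a replicate 1 (edgeR adjusted p = 0.0761) and without WT DMSO replicate 2 (0.203). ZAP70 lost it when any one of the 4 WT libraries was left out, with adjusted p of 0.0543 to 0.122. Both were also not called without the 3 libraries named above, with adjusted p of 0.200 for SPATA18 and 0.188 for ZAP70. The DESeq2 Wald test called neither (adjusted p = 0.0645 for SPATA18 and 0.134 for ZAP70). Nor did limma on log2(RPKM + 0.1), with adjusted p of 0.0720 for SPATA18 and 0.105 for ZAP70, or 0.121 and 0.149 with no filter.

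GPR183, FOXL2 and MYD88, 3 of the most abundant, did not pass the test in WT cells. GPR183 averaged 114 ± 12 CPM in WT Nutlin-3a and 114 ± 2.6 CPM in WT DMSO libraries, with a log2 fold change of 0.00078 (SE 0.06, edgeR adjusted p = 0.993). MYD88 averaged 20.2 ± 0.54 CPM in WT Nutlin-3a and 20.1 ± 0.87 CPM in WT DMSO libraries, with a log2 fold change of 0.0094 (SE 0.10, edgeR adjusted p = 0.943). FOXL2 averaged 66.3 ± 1.9 CPM in WT Nutlin-3a and 60.9 ± 0.51 CPM in WT DMSO libraries, with a log2 fold change of 0.12 (SE 0.06, edgeR adjusted p = 0.0842). With upper-quartile scaling FOXL2 was called, at 0.15 (adjusted p = 0.0400). The call thus differed within the FOXL2 pair, and whether the responses of FOXL2 and FOXL2NB differ was not tested. TSPAN32, at -0.55 (SE 0.25, edgeR adjusted p = 0.0741), and CALHM3, at -0.37 (SE 0.17, edgeR adjusted p = 0.0662), were the largest falls not called, and LOC101927482, at 0.40 (SE 0.19, edgeR adjusted p = 0.0828), the largest rise not called. TSPAN32 was called in 6 of 18 alternatives, CALHM3 in 5 and LOC101927482 in 2.

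**Figure D4:**
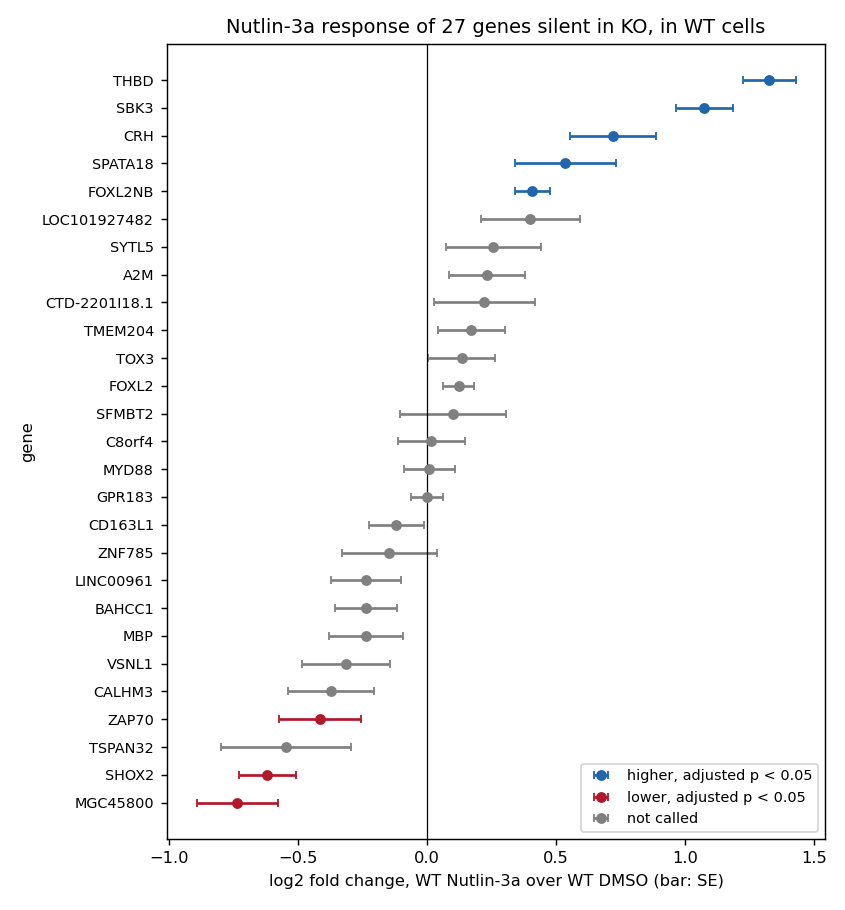
Log2 fold change of WT Nutlin-3a over WT DMSO (horizontal axis) with its SE for 27 of the 28 genes (vertical axis), blue where called higher, red where called lower and grey where not called. The 5 blue genes run from 0.41 to 1.33, the 3 red genes from -0.74 to -0.41, and 19 genes are grey.

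In KO cells the limit of 20 reads leaves little to test. Even so, 3 genes were called higher with Nutlin-3a and 0 lower by edgeR's quasi-likelihood test, against 38.7% of all tested genes called, 18.1% higher and 20.6% lower. Their read counts are given above. FOXL2 had a log2 fold change, KO Nutlin-3a over KO DMSO, of 2.56 (SE 0.60, edgeR adjusted p = 0.00215). FOXL2NB had one of 1.46 (SE 0.41, edgeR adjusted p = 0.0090) and MYD88 one of 1.15 (SE 0.38, edgeR adjusted p = 0.0231). All 3 stayed at or under 20 reads, so that even after Nutlin-3a their KO RPKM was at most 0.216.

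These KO calls rest on few reads. The FOXL2NB call was lost without KO Nutlin-3a replicate 1 (edgeR adjusted p = 0.102) and without KO DMSO replicate 1 (0.103). The MYD88 call was lost without KO Nutlin-3a replicate 2 (edgeR adjusted p = 0.164), without KO DMSO replicate 1 (0.180) and without the 3 libraries named above (0.164). None of the 28 was called in KO by limma on log2(RPKM + 1), a scale that understates changes of low genes.

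The limit on KO reads also bears on the difference of the Nutlin-3a responses. Its share of calls therefore cannot be weighed against that of all tested genes, which were not chosen by that limit. This difference, KO minus WT, passed the edgeR test for 4 of the 28 genes, or 14.3%, beside 27.5% of all tested genes. It was positive for FOXL2 (log2 2.44, adjusted p = 0.00536), SHOX2 (1.34, adjusted p = 0.0267) and MYD88 (1.15, adjusted p = 0.0390), and negative for SYTL5 (-1.47, adjusted p = 0.0482). Without the 3 libraries named above the MYD88 difference was not called (0.88, edgeR adjusted p = 0.243). For SHOX2 the response was 0.72 in KO cells (edgeR adjusted p = 0.201) and -0.62 in WT cells. For THBD, with responses of 0.23 in KO cells and 1.33 in WT cells, the difference of -1.10 had an edgeR adjusted p of 0.0849.

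The genes next to the 28 on the chromosome were then compared between KO DMSO and WT DMSO, since the choice of the 28 did not fix their level. For the 27 placed genes there were 52 nearest tested neighbours that are not themselves among the 28. Of these, 25 were lower in KO (48.1%, against 30.1% of all tested genes), 15 were higher (28.8%, against 31.4%) and 12 were not called by edgeR's quasi-likelihood test. Falls of over 2-fold numbered 12 (23.1%, against 7.23%) and rises of over 2-fold 6 (11.5%, against 9.88%). These shares carry no test of their own. In 9 pairs the neighbour overlaps the silent gene, and 5 of the 25 lower neighbours are of that kind. Whether the counting used strand is not known here, so reads of overlapping genes may not be separated.

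Some neighbours were close to 0 reads in KO themselves. C11orf21, which overlaps TSPAN32, had 0 reads in all 4 KO libraries, against 28 and 26 in WT Nutlin-3a and 57 and 45 in WT DMSO libraries, and was at least 42.9-fold lower in KO DMSO against a floor of 3 reads over both KO DMSO libraries. ACSM4, an acyl-CoA synthetase gene that overlaps CD163L1, also had 0 reads in all 4 KO libraries, against 14 and 6 in WT Nutlin-3a and 15 and 9 in WT DMSO libraries, and was at least 10.1-fold lower by the same floor. TRIM55, a muscle ubiquitin ligase beside CRH, had 3 and 0 reads in KO DMSO and 80 and 68 in WT DMSO libraries, a log2 difference of -5.83 (SE 0.45, edgeR adjusted p = 2.5e-09).

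Other neighbours were lower but had more than 20 reads in each KO DMSO library. THBS4, a matrix thrombospondin whose gene overlaps its antisense partner CTD-2201I18.1, had 631 and 641 reads in KO DMSO and 8138 and 7567 in WT DMSO libraries, a log2 difference of -3.96 (SE 0.05, edgeR adjusted p = 4.9e-20). SALL1, a zinc finger factor beside TOX3, had 22 and 22 reads in KO DMSO and 262 and 290 in WT DMSO libraries, a log2 difference of -3.98 (SE 0.24). IDO1, a tryptophan-degrading enzyme beside C8orf4, had 30 and 37 reads in KO DMSO and 343 and 302 in WT DMSO libraries, a log2 difference of -3.60 (SE 0.17). The neighbour of C8orf4 on the other side, ZMAT4, went the opposite way, with 180 and 150 reads in KO DMSO and 8 and 4 in WT DMSO libraries, a log2 difference of 4.42 (SE 0.30). ITIH5 beside SFMBT2 was likewise higher, with 26 and 25 reads in KO DMSO and 2 and 2 in WT DMSO libraries, a log2 difference of 3.27 (SE 0.70). SALL1, IDO1, ZMAT4 and ITIH5 were all called by edgeR. The ITIH5 call was lost by limma on log2(RPKM + 1), at 0.11 (adjusted p = 0.195), and on log2(RPKM + 0.1) with no filter, at 0.80 (adjusted p = 0.0555).

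The neighbours of the most abundant of the 28 follow. Beside the FOXL2 pair, PIK3CB differed by -1.20 (SE 0.08) and MRPS22 by -0.69 (SE 0.06) on the log2 scale, both called lower in KO DMSO by edgeR. Beside MYD88, OXSR1 differed by -0.45 (SE 0.06) and was called lower, while ACAA1, at -0.01 (SE 0.09, edgeR adjusted p = 0.956), was not called. UBAC2, which overlaps GPR183, had a log2 difference of -0.38 (SE 0.05) and was called lower. LINC01232, the other neighbour of GPR183, was not called (-0.45, SE 0.49, edgeR adjusted p = 0.447). Beside SBK3, SSC5D differed by 0.69 (SE 0.21) and was called higher, while ZNF579, at -0.21 (SE 0.08), was called lower.

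The pathways of these genes were followed through 61 partner and relative genes, listed once the 28 were known, of which 45 were tested. In KO DMSO against WT DMSO 14 of the 45 were higher, 21 lower and 10 not called by edgeR, beside 31.4% higher and 30.1% lower of all tested genes. For MYD88, 8 of 12 tested receptors and signalling partners were lower and 2 higher. IL1R1, the signalling receptor of interleukin-1, had 8 and 5 reads in KO DMSO and 192 and 182 in WT DMSO libraries, a log2 difference of -5.15 (SE 0.32, edgeR adjusted p = 1.0e-10). IRAK2 differed by -1.90, TLR4 by -1.35 and TLR6 by -1.18, while TLR1 differed by 0.88 and the receptor subunit IL1RAP by 0.77, all called. TRAF6, the ligase downstream of the kinases, was not called (-0.21, edgeR adjusted p = 0.0572).

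For the other genes the picture varied by family. HPCAL1, a calcium sensor of the VSNL1 family, had 1008 and 989 reads in KO DMSO and 8940 and 8435 in WT DMSO libraries, a log2 difference of -3.46 (SE 0.07). TOX2 and TOX, relatives of TOX3, differed by -2.23 and -0.62, and TOX4 by 0.21, all called by edgeR. RAB27B, a small GTPase that synaptotagmin-like proteins bind, was higher in KO DMSO by 3.90 on the log2 scale (SE 0.20), and SBK1, a relative of SBK3, by 1.22 (SE 0.07). PROCR, the receptor that presents protein C to the thrombin and THBD complex, differed by -0.75 between KO DMSO and WT DMSO, and had a log2 Nutlin-3a response of 1.23 in WT cells (SE 0.07, edgeR adjusted p = 4.9e-11) beside the 1.33 of THBD. The CRH receptors CRHR1 and CRHR2 had at most 6 reads, and CH25H and CYP7B1, enzymes that make the GPR183 ligand, at most 8 reads in any library.

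Of 21 gene lists, 2 held one of the 28. SPATA18 is in the list of core p53 targets, whose other 108 tested genes had 103 called higher and 2 lower in WT Nutlin-3a against WT DMSO, with a median log2 fold change of 1.92 against the 0.54 of SPATA18. In KO DMSO against WT DMSO, 32 of these 108 were higher and 50 lower. GPR183 is in the list of G protein coupled receptor signalling, whose other 44 tested genes had 15 higher and 17 lower in KO DMSO against WT DMSO. In WT cells 14 of these 44 rose and 18 fell with Nutlin-3a. Beside the counts of both lists, 31.4% of all tested genes were higher and 30.1% lower in KO DMSO against WT DMSO. With Nutlin-3a in WT cells, 29.4% of all tested genes rose and 29.2% fell.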

How the data were processed

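The authors deposited whole read counts per gene for 25369 genes in 8 libraries, and RPKM values per gene. The submitters' processing notes list HTSeq 0.8.0, GRCh37 (hg19) as the build, and TopHat2 2.1.1 with Bowtie2 2.2.9.0, besides Picard 2.9.4, SAMtools 1.5, FastQC 0.11.5 and bcl2fastq. Libraries were strand-specific TruSeq, per the labels' protocols. Neither the gene annotation nor any use of strand in counting is given in the sources used here.

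Groups and replicate numbers come from the sample titles. The deposited counts were fitted with edgeR 4.0.16 in R 4.3.3, using TMM scaling and 4 group means over all 8 libraries, which left 4 residual degrees of freedom. Of the genes 15879 passed filterByExpr and 9490 did not. Tests were robust quasi-likelihood F tests, with Benjamini-Hochberg adjusted p values over all tested genes and a threshold of 0.05. The common biological coefficient of variation was 0.0424. All 28 genes passed the filter. They enter every count, but 1 of them is not reported here by name or value. CPM uses TMM-scaled totals. RPKM served for levels compared between genes and, on a log2 scale with a pseudocount, for alternatives fitted with limma 3.58.1. Intervals and floors cover counting error only, since no source names molecular identifiers.

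The genes and all gene lists were chosen with earlier results of these data known. Values are given for the 20 genes with the highest WT CPM, the called genes, adjacent genes, genes in a list, genes near the limits and up to 8 neighbours past 2-fold. Other neighbours and partner genes were named after their values were seen. Gene symbols were matched to RefSeq (23 by symbol, 4 by synonym or gene ID), which is of build GRCh38.p14, so it gave names, chromosomes, order and promoters alone. On simulated data of 15879 genes for the WT response, 88 of 100 genes changed 1.5-fold and 97 of 100 changed 2-fold were recovered, with 9 unchanged genes called. Alternatives were other scaling factors, no low-count filter, the DESeq2 1.42.0 Wald test, limma on logged RPKM with pseudocounts of 0.1 and 1, stricter thresholds, other read limits, a replicate block and each library left out.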

Additional observations from a re-analysis of the deposited data

Results flagged for a closer look

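The Nutlin-3a response differed between KO and WT cells, by edgeR's quasi-likelihood test of the difference itself, for 4 of the 28 genes. These are 14.3% of the 28, beside 27.5% called among all tested genes. The limit on KO reads that chose the 28 bounds this share, so no conclusion is drawn from it. The difference, KO minus WT on the log2 scale, was 2.44 for FOXL2 (SE 0.60, adjusted p = 0.00536), the forkhead factor, and 1.15 for MYD88 (SE 0.40, adjusted p = 0.0390), the Toll-like receptor adaptor. It was 1.34 for SHOX2 (SE 0.43, adjusted p = 0.0267), the homeobox factor, and -1.47 for SYTL5 (SE 0.53, adjusted p = 0.0482), the Rab27-binding protein. Each rests on at most 20 reads per KO library. The FOXL2 difference fell short of the threshold without KO DMSO replicate 1 (adjusted p = 0.0656). That of MYD88 fell short in 8 of 17 alternatives, among them leaving out KO Nutlin-3a replicate 2 (adjusted p = 0.203), KO DMSO replicate 1 (0.219), WT DMSO replicate 1 (0.0550) or WT DMSO replicate 2 (0.0757). That of SHOX2 fell short in 3, without KO Nutlin-3a replicate 1 (adjusted p = 0.194), KO DMSO replicate 1 (0.0735) or KO DMSO replicate 2 (0.0992). That of SYTL5 fell short in 10, among them leaving out any of the 4 KO libraries (adjusted p = 0.0567 to 0.217), WT Nutlin-3a replicate 2 (0.0657) or WT DMSO replicate 1 (0.0987).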

How the results depend on the processing

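Depth limits the KO values, since 20 reads or fewer per library resolve large changes alone, and 2 replicates a group limit every test. Of the 9 WT calls, 6 held in all 18 alternatives that keep the threshold of 0.05. SPATA18 and ZAP70, which did not, are described above, and the cause was not tested. Same-numbered deviations from the group means correlated at -0.0226 to 0.2318, the highest between KO Nutlin-3a and WT DMSO. The libraries were therefore not paired by replicate number in the main fit, and a batch shared by replicate number was not tested. The replicate block gave 5 genes higher and 4 lower in WT cells, 3 called in KO cells, 25 neighbours lower and 15 higher, so it changed no count. Other read limits change which genes are taken. At most 10 KO reads gave 11 genes (3 higher, 1 lower and a median of 0.12 for the WT response, 1 called in KO, 12 neighbours lower and 6 higher). At most 50 KO reads gave 63 genes, with 15 higher and 11 lower in WT cells, 14 called in KO cells, and 56 neighbours lower and 32 higher. At least 50 WT reads gave 64 genes, with 18 higher, 10 lower and a median of 0.059 in WT cells, 6 called in KO cells, and 57 neighbours lower and 34 higher. At least 200 WT reads gave 15 genes, with 3 higher and 1 lower in WT cells, and 16 neighbours lower and 7 higher. Limits of 0.5 CPM in KO and 3 CPM in WT gave 26 genes, of which 22 were among the 28. With at least a 2-fold change, the WT response left 2 genes called higher and 0 called lower, and 12 neighbours were lower and 6 higher. The number lower in WT cells was 2 by the DESeq2 Wald test, by limma on log2(RPKM + 0.1) with or without a filter, and at an adjusted p of 0.01, and 7 by limma on log2(RPKM + 1). The number called in KO cells was 5 with no low-count filter and 0 by limma on log2(RPKM + 1). Upper-quartile factors gave a median WT response of 0.039. Leaving out 1 library at a time gave 4 to 5 genes higher and 2 to 5 lower in WT cells, medians of -0.0067 to 0.036, 1 to 4 called in KO cells, and 23 to 25 neighbours lower and 13 to 16 higher. The lowest counts came without WT Nutlin-3a replicate 1 for genes lower in WT cells and without KO DMSO replicate 1 for genes called in KO cells. Among single genes, signs turned only for WT responses that were not called, apart from the FOXL2 difference of responses, which was -0.016 by limma on log2(RPKM + 1). GPR183 gave -0.0031 with no filter, -0.0026 with the replicate block and -0.065 without the 3 libraries that stood apart, and C8orf4 gave -0.045 there. Over the libraries left out, C8orf4 ran from -0.096 to 0.16, GPR183 from -0.090 to 0.10, CTD-2201I18.1 from -0.016 to 0.53, MYD88 from -0.013 to 0.051, SFMBT2 from -0.11 to 0.31 and ZNF785 from -0.29 to 0.036.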

Other observations

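The 18 genes just outside the read limits had their own Nutlin-3a responses in WT cells, and 10 of them were called by edgeR's quasi-likelihood test (55.6%, against 58.6% of all tested genes), with 7 higher and 3 lower. PLAC8, a small cysteine-rich protein of leukocytes, had 838 and 736 reads in WT Nutlin-3a and 224 and 228 in WT DMSO libraries, a log2 fold change of 1.82 (SE 0.10, adjusted p = 3.0e-11). LAPTM5, the lysosomal protein, had 499 and 402 reads in WT Nutlin-3a and 136 and 123 in WT DMSO libraries, a log2 fold change of 1.81 (SE 0.14, adjusted p = 2.3e-09). GPR132, a G protein coupled receptor, had a log2 fold change of 0.93 (SE 0.17, edgeR adjusted p = 0.000130), and LIPG, endothelial lipase, one of -1.10 (SE 0.22, edgeR adjusted p = 0.000342). These genes were chosen by their KO and WT reads, and those named here after their responses were seen.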
